A study of Mus musculus with 22 samples.

Results

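The 10 genes described here are regulators and receptors of the lymphoid lineage, Ikzf1, Ikzf3, Ebf1, Pax5, Gata3, Bcl11b, Notch1, Il7r, Rag1 and Rag2, examined in myeloid progenitors among 21938 protein-coding genes. They are listed for their known function, and every H3K27ac peak in the gene body or within 20 kb of it (GRCm38) was taken. Histone H3 acetylated at lysine 27 (H3K27ac) marks active promoters and enhancers. It was measured by chromatin immunoprecipitation and sequencing (ChIP-seq) in 3 libraries, replicates 1, 2 and 3, of sorted bone marrow KL cells, which are cKit-positive, Sca1-negative and lineage-negative. The male C57BL/6 mice were scl-Cre-ERT + and Bcor fl/y. They had received tamoxifen at 1 mg per day for 5 days when 3 to 6 months old, and the cells were taken 20 weeks later. The Cre is driven by a stem cell enhancer of Scl (Tal1), so recombination is induced in stem cells and inherited by the KL cells. Loss of exons 9 and 10 leaves a truncated Bcor protein without the domain that binds Polycomb repressive complex 1, giving BcorΔE9-10 cells. All 3 libraries carry this allele and this treatment. The other 19 samples of the series, BcorWT cells among them, were not analysed here, so nothing below compares genotypes.

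Lymphoid development proceeds in steps that each depend on some of these genes. Ikzf1 (Ikaros) is a zinc finger factor of the earliest lymphoid steps that is also present in stem and myeloid progenitor cells, and Ikzf3 (Aiolos) is its relative in maturing B cells. Ebf1 and Pax5 specify and hold the B cell fate, Gata3 and Bcl11b do so for T cells, and Notch1 is the receptor whose signal starts the T cell programme in the thymus. Il7r is the receptor chain through which interleukin 7 keeps early lymphocytes alive, and Rag1 and Rag2 together form the recombinase that assembles antigen receptor genes. The question here was how many of these genes carry H3K27ac in cells of the myeloid branch, and where.

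The peak lists give depths of 18.0, 18.9 and 19.3 M reads for replicates 1, 2 and 3, and no called summit had fewer than 8, 8 and 9 fragments. A gene without a peak had no site that passed this limit or, where the local background was high, a higher one, so weaker acetylation was not detectable at this depth. In a sorted population, a mark carried by few cells and a weak mark in many cannot be told apart. The label of the cells was checked against marker genes. Of 10 myeloid progenitor markers 9 had a peak within 2.5 kb of a transcription start site (TSS) in at least 2 libraries. They were led by Kit, Spi1 and Cebpa with mean fold enrichments of 9.77, 8.29 and 7.96, and Elane had only distal peaks by that rule. Of all genes 46.9% had such a peak, as did 2 of 9 B cell markers and 3 of 11 T cell markers. A further 3 B cell and 5 T cell markers had only distal peaks, a class with 13.2% of all genes. Lymphoid marker windows were thus not free of the mark. The check rests on the counts of TSS peaks and not on strength. The leading values lay below 10.2, the median of genes with a TSS peak in every library.

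Sequences of the promoters and intronic sites on which the results turn are shown here. They were read from the RefSeq GRCm38.p6 assembly in the direction of transcription. The upstream sequences hold the 250 bases before the TSS of Ikzf1 (chr11:11685675-11685924, plus strand), Notch1 (chr2:26503823-26504072, minus), Rag2 (chr2:101624468-101624717, plus), Bcl11b (chr12:108003603-108003852, minus) and Il7r (chr15:9529836-9530085, minus). The first 3 belong to genes with a peak at the TSS and the last 2 to genes without one. The intronic sequences hold 200 bases round the strongest summit of the distal regions found in every library, in Ikzf1 (chr11:11691473-11691672) and in Notch1 (chr2:26484017-26484216). The last holds 200 bases round the strongest summit of the Rag2 TSS region, that of replicate 3 (chr2:101625063-101625262). The summits of replicates 1 and 2 (chr2:101624757 and chr2:101624628) lay outside this stretch, so it does not show a shared summit. Capitals mark matches, on either strand, to 5 short runs of letters. TGGGAA is typical of sites bound by the IKZF family, TGTGGT of those of the RUNX family, AGATAA of those of Gata1, Gata2 and Gata3, GAGGAA of those of PU.1 and other ETS factors, and CAGCTG is an E-box. No matches overlap each other.
Ikzf1 upstream: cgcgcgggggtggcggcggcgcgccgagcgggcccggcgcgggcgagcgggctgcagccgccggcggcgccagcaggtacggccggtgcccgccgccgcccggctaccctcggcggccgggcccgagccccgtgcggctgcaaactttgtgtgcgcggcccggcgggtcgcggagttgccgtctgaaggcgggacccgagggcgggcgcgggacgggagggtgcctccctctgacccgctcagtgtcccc
Notch1 upstream: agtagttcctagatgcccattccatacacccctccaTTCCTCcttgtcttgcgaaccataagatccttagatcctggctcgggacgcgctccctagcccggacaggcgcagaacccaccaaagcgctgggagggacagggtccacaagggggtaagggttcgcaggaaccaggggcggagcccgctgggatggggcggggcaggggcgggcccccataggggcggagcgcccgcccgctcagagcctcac
Rag2 upstream: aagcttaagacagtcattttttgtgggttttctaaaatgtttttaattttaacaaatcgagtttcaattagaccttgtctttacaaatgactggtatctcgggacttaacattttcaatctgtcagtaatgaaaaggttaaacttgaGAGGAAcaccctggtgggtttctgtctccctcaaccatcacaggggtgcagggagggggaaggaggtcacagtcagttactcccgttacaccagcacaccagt
Bcl11b upstream: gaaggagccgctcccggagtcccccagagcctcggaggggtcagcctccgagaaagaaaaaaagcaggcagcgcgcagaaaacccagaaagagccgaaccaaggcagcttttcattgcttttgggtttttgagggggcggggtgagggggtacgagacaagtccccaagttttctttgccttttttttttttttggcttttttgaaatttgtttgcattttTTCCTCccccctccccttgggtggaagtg
Il7r upstream: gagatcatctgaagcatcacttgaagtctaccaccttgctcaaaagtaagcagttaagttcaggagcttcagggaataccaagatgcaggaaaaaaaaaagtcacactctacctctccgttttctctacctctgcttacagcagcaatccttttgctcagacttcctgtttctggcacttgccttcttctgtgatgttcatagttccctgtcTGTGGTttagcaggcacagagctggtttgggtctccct
Ikzf1 intron: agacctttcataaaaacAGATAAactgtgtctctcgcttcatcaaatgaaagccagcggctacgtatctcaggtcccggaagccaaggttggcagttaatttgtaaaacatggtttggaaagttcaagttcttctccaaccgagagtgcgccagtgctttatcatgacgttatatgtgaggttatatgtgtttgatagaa
Notch1 intron: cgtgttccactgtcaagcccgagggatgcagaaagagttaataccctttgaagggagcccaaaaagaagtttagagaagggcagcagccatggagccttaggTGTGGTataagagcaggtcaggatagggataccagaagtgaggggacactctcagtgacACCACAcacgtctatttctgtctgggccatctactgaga
Rag2 TSS region: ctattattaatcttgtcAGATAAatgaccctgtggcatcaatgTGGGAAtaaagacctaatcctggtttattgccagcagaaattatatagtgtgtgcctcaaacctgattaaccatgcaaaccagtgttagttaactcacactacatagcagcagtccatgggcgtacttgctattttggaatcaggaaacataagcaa

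Of the 10 genes, 3 had a TSS peak in at least 2 libraries, where a TSS peak lies within 2.5 kb of any annotated TSS of the gene. Among all protein-coding genes the share was 46.9%. These genes were Ikzf1, Notch1 and Rag2, and each had its TSS peak in all 3 libraries, against 43.9% of all genes. Rag1 alone had only distal peaks, a class that held 13.2% of all genes. The remaining 6, Ikzf3, Ebf1, Pax5, Gata3, Bcl11b and Il7r, had no peak in the window in any library, against 36.6% of all genes, or 39.9% when a peak in 1 library was allowed. No gene of the 10 changed class between libraries. With 10 genes these shares carry no test.

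**Figure D1:**
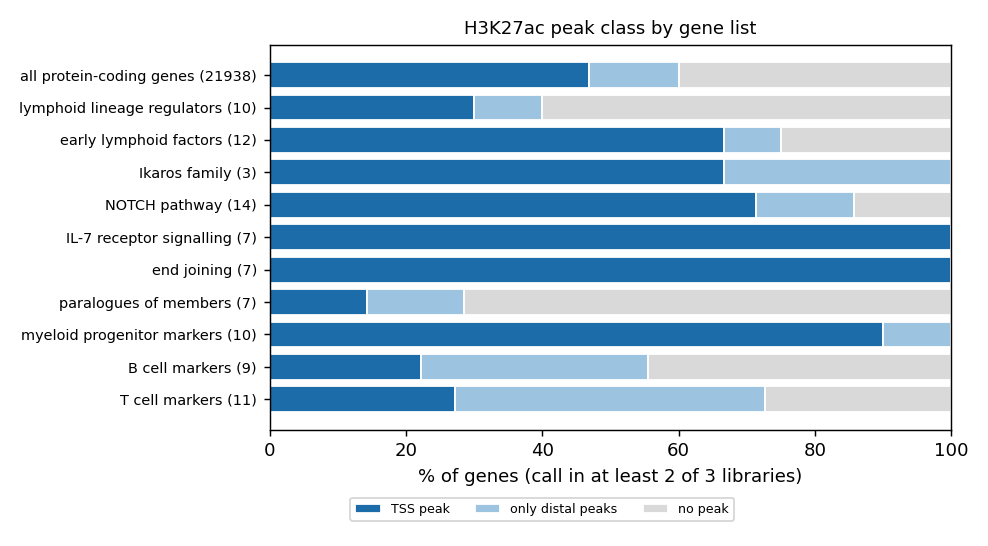
Share of genes (%) by H3K27ac peak class, called in at least 2 of 3 libraries, for all 21938 protein-coding genes, the 10 lymphoid regulators and 9 lists of related or marker genes (number of genes in parentheses). The lymphoid regulators hold 30% with a TSS peak, 10% with only distal peaks and 60% with no peak.

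The 3 acetylated start sites differed in strength. Fold enrichment, the peak caller's ratio of signal at a summit to its estimate of background, was 12.9, 17.2 and 21.7 at the Ikzf1 TSS in replicates 1, 2 and 3 (17.3 ± 4.43, SD, n = 3). Ikzf1 stood above 83.4% of the 9637 genes with a TSS peak in all 3 libraries, whose median was 10.2. At Notch1 the values were 5.46, 4.30 and 7.15 (5.64 ± 1.44, SD, n = 3), above 12.7% of those genes. At Rag2 they were 4.40, 4.25 and 4.56 (4.40 ± 0.153, SD, n = 3), above 3.00% of them. The lowest Ikzf1 value exceeded the highest of Notch1, while the values of Notch1 and Rag2 overlapped. Within libraries Ikzf1 was higher than Notch1 by ratios of 2.36, 4.01 and 3.04. Notch1 was higher than Rag2 by 1.24, 1.01 and 1.57, where the replicate 2 ratio takes the upstream peak for Rag2. Both orders were seen in 3 of 3 libraries, and exact permutation over the signs of the 3 log ratios gave p = 0.25 for each pair (two-sided, and 0.25 after Benjamini-Hochberg adjustment over the 2 pairs). No smaller p is possible with 3 libraries. With a TSS window of 5 kb the means of Notch1 and Rag2 were 5.86 and 5.84, and in replicate 2 Rag2 was the higher (6.00 against 4.96).

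**Figure D2:**
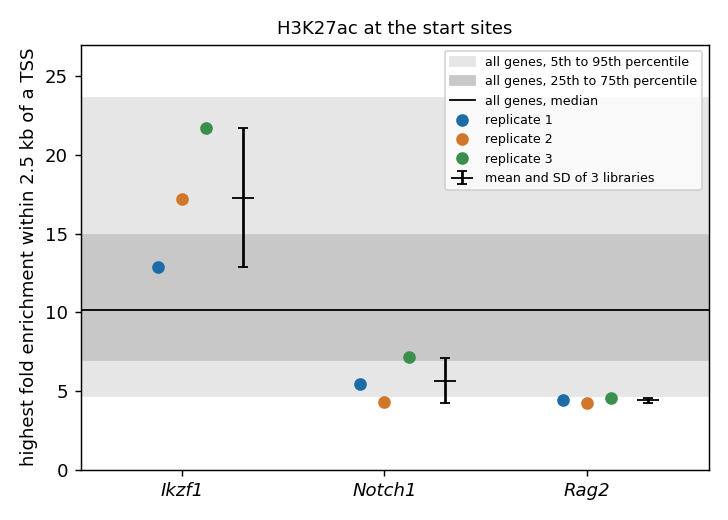
Highest H3K27ac fold enrichment within 2.5 kb of a TSS for Ikzf1, Notch1 and Rag2, with 1 point per library and the mean and SD of 3 libraries, over the percentiles of the means of 9637 genes with a TSS peak in every library. The Ikzf1 points lie between 12.9 and 21.7, above the median of 10.2, and the 6 points of the other genes lie between 4.25 and 7.15, below it.

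Ikzf1 (ENSMUSG00000018654, chr11:11685003-11772926, plus strand) held the broadest acetylated promoter of the 10 genes. The main peak covered the TSS in every library and its summit lay on 44, 61 and 79 fragments in replicates 1, 2 and 3. The Poisson 95% intervals of these counts ran from 32.0 to 59.1, from 46.7 to 78.4 and from 62.5 to 98.5. The count in replicate 1 was the lowest, and its interval did not reach that of replicate 3. TSS-proximal peaks covered 2969, 2282 and 2722 bp (2658 ± 348, SD, n = 3), a length above that of 96.1% of genes with a TSS peak in every library, whose median was 1001 bp. The start of a non-coding gene, Gm11999, lies inside the same peak, so the acetylation could not be given to 1 of the 2 starts. A second region in all 3 libraries, chr11:11687597-11688284, lay in an intron 2.18 kb downstream of the TSS, with fold enrichments of 3.84, 4.29 and 6.64.

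Inside Ikzf1 and its flanks the peaks were many and mostly weak. The window of 128 kb held 12, 9 and 13 peaks, or 9.38, 7.04 and 10.2 per 100 kb, a mean density above that of 91.4% of all genes. Merging overlapping peaks gave 20 regions, of which 4 were found in all 3 libraries, 5 in 2 and 11 in 1. Of the 16 regions that lay more than 2.5 kb from every TSS, 1 was in all 3 libraries. This was the intronic region chr11:11690940-11691722, whose summit lay 5.65 kb downstream of the TSS. Its fold enrichment was 3.07, 6.72 and 5.39, on 12, 26 and 22 fragments, so replicate 1 was the lowest. A neighbouring intronic region, chr11:11691891-11692288, was listed in replicates 1 and 3 alone, at 4.34 and 4.10. The start of Gm12000, a gene in an Ikzf1 intron, carried a region in all 3 libraries (chr11:11695650-11696182), with fold enrichments of 5.41, 3.80 and 4.89. Upstream of the promoter the window held 2 regions, one 17.9 kb from the TSS in replicates 1 and 3 and one 18.3 kb from it in replicate 1 alone.

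Notch1 (ENSMUSG00000026923, chr2:26457903-26516663, minus strand) combined a weak promoter peak with intronic sites of like strength. The TSS region, chr2:26503308-26503797, was found in all 3 libraries on 15, 12 and 21 fragments. The peaks lay 73, 25 and 49 bp downstream of the TSS and did not reach the upstream sequence printed above. No peak lay at the most upstream annotated start, which marks the 5′ end of the gene body. The TSS used here is the most upstream among basic protein-coding transcripts. Replicate 3 listed 2 further peaks within 2.5 kb of the TSS, so that TSS-proximal peaks covered 266, 407 and 875 bp. The intronic region chr2:26483511-26484350, with its summit 19.7 kb downstream of the TSS, was the 1 distal region of 9 in this gene that every library listed. Its fold enrichment was 6.83, 5.62 and 7.48 (6.64 ± 0.942, SD, n = 3), on 19, 16 and 22 fragments. This was higher than the value at the TSS in 3 of 3 libraries. The excess was less than the SD of the TSS values, which measures spread between libraries and not a difference within them. The difference was not tested. A second intronic site, 28.2 kb from the TSS (chr2:26475449-26476159), was listed in replicates 2 and 3 at 4.96 and 6.18 and not in replicate 1.

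The highest peak in the Notch1 window belonged to its neighbours. A region within 2.5 kb of starts of Sec16a and 0610009E02Rik, chr2:26444504-26445201, had fold enrichments of 14.5, 13 and 14.6, and an adjoining region had 6.00, 7.37 and 9.31. These lie beyond the 3′ end of Notch1. The whole window of 98.8 kb held 6, 12 and 10 peaks. Replicate 1 had the fewest distal ones, with 2 against 7 in replicate 2 and 5 in replicate 3.

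**Figure D3:**
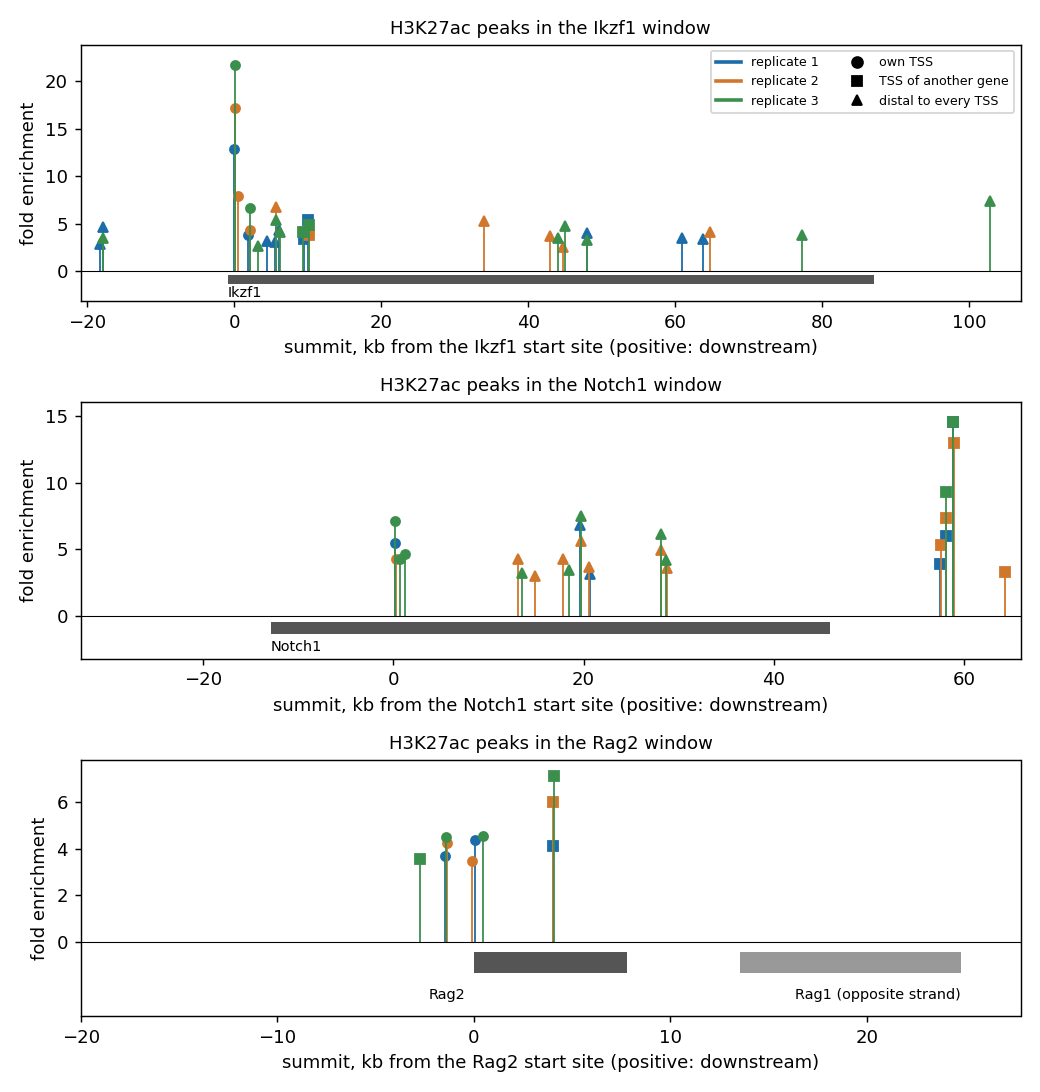
Each H3K27ac peak in the windows of Ikzf1, Notch1 and Rag2, placed by the distance of its summit from the gene's TSS (kb, positive in the direction of transcription) with its fold enrichment as height, coloured by library and shaped by class. Bars under the axis are gene bodies. The Ikzf1 TSS carries the highest peak of its window, whereas in the Notch1 window the highest peaks, between 13 and 14.6, lie near the starts of neighbouring genes.

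Rag1 (ENSMUSG00000061311, chr2:101638282-101649501, minus strand) and Rag2 (ENSMUSG00000032864, chr2:101624718-101632529, plus strand) lie tail to tail and share most of their windows, so their peaks are the same rows counted for both. The Rag2 TSS region, chr2:101624332-101625283, had fold enrichments of 4.40, 3.5 and 4.56, on 16, 13 and 13 fragments. The peak overlapped the TSS in replicates 1 and 2, and in replicate 3 it began 159 bp from the nearest annotated Rag2 start. The peaks of replicates 2 and 3 did not overlap each other and were merged through that of replicate 1. A second region 1.39 kb upstream, chr2:101623113-101623506, had 3.69, 4.25 and 4.50, and it also lies within 2.5 kb of a start of B230118H07Rik, a gene that overlaps Rag2. An intronic region at a start of B230118H07Rik (chr2:101628519-101628939) had 4.15, 6.00 and 7.13 and was the highest of the locus in replicates 2 and 3. No peak touched the Rag1 gene body or its TSS in any library, and the closest edge of a peak was 9.40, 9.39 and 9.34 kb away. All peaks in the Rag1 window, 3, 3 and 4 per library, lay within 2.5 kb of a start of Rag2 or B230118H07Rik. The Rag2 call rests on weak peaks. When peaks with a −log10 q under 5 were left out, Rag2 no longer had a TSS peak in 2 libraries, while Ikzf1 and Notch1 kept theirs, and 42.9% of all genes had one.

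The regulators of B cell fate and the late B cell factor were free of called peaks. Ebf1 (ENSMUSG00000057098, chr11:44617317-45008091) has a window of 431 kb, the longest of the 10, and no library listed a peak in it. Of the 369 protein-coding genes with windows at least as long, 58.3% also had no peak in any library (Wilson 95% interval 53.2% to 63.2%). The share among genes with windows at least as long was lower for the other 5 genes without a peak, at 47% for Pax5, 36.2% for Bcl11b, 34.5% for Ikzf3, 28.8% for Gata3 and 28.7% for Il7r. The peak nearest to Ebf1 lay 70.5, 70.5 and 87.9 kb upstream of the gene, and Rnf145 was the gene with the closest TSS. Pax5 (ENSMUSG00000014030, chr4:44524757-44710487) had its nearest peak 45.4, 45.3 and 45.4 kb upstream, at the Zcchc7 start. For Ikzf3 (ENSMUSG00000018168, chr11:98464902-98546031) it lay 25.9 kb downstream in each library, at the Mien1 start, where fold enrichment was 6.59, 7.0 and 9.24. In these genes the nearest acetylated site thus lay beyond the window, and for Pax5 and Ikzf3 it was at the start of another gene.

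The T cell factors gave the same picture at greater distances. Gata3 (ENSMUSG00000015619, chr2:9857078-9890034) had its nearest peak 71.8, 79.7 and 158 kb upstream. In replicates 1 and 2 it lay closest to Taf3 and in replicate 3 at C630004M23Rik, so the libraries did not list the same site. Bcl11b (ENSMUSG00000048251, chr12:107910403-108003602) had none nearer than 166, 174 and 166 kb, in each case on the side of Setd3. Il7r (ENSMUSG00000003882, chr15:9505788-9530176), the interleukin 7 receptor chain, had its nearest peak 364 and 365 kb downstream in replicates 1 and 3, at the Lmbrd2 start. Replicate 2 listed 1 peak at 41.9 kb, with a fold enrichment of 3.97 on 11 fragments, that neither other library listed.

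**Figure D4:**
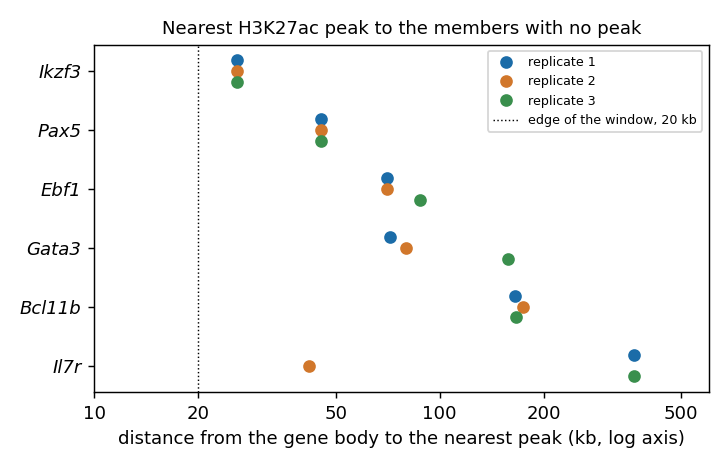
Distance from the gene body to the nearest H3K27ac peak (kb, log axis) for the 6 genes with no peak in the window, with 1 point per library and a dotted line at the window's edge of 20 kb. Points run from 25.9 kb for Ikzf3 to 365 kb for Il7r, and Il7r in replicate 2 (41.9 kb) stands apart from its other libraries.

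Over the union of the 10 windows, merging gave 39 regions, of which 11 were in all 3 libraries (28.2%, Wilson 95% interval 16.5% to 43.8%), 8 in 2 and 20 in 1. Across the genome 41.3% of regions were in all 3. The 7 regions near a TSS of one of the 10 genes included 5 in every library (71.4%, Wilson 95% interval 35.9% to 91.8%). Of the 19838 TSS-proximal regions of the genome 59.6% were in every library, a share inside that interval. Of the 25 regions distal to every TSS, 2 were in every library (8%, Wilson 95% interval 2.22% to 25%), beside 16.7% of the 14757 distal regions of the genome. Those 2 are the introns of Ikzf1 and Notch1 printed above. Within libraries the median fold enrichment of TSS-proximal peaks over that of all other peaks in the windows was 1.12, 0.998 and 1.12 (1.08 ± 0.0677, SD, n = 3). Exact permutation over the signs of the log ratios gave a two-sided p of 0.5. The ratio was above 1 in 2 of 3 libraries, and its direction turned when the flank was widened to 50 kb (0.962, exact permutation p = 0.25, two-sided). It was 1.38 with a TSS window of 1 kb, 1.27 in the gene bodies alone and 1.16 without peaks at starts of other genes (exact permutation p = 0.25 for each, two-sided). With a −log10 q of at least 5 it was 1.11 (exact permutation p = 0.75, two-sided). The p of 0.25 is the smallest possible with 3 libraries, so it cannot rank these settings. The test does not settle the direction of the ratio.

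CpG-rich promoters are common at broadly used genes, so the start sites were also described by base composition. A promoter was called CpG-rich where 1 kb centred on the TSS had a GC content of at least 50% and an observed over expected CpG ratio of at least 0.6. Of all CpG-rich promoters 76.8% had a TSS peak in at least 2 libraries (Wilson 95% interval 76.0% to 77.6%), against 21.4% of the others (20.7% to 22.1%). The 10 genes split into 5 of each kind. Ikzf1 had a GC content of 77.1%, above that of 99.6% of genes, and a CpG ratio of 0.977, and Notch1 had 65.0% and 0.728. Both were CpG-rich and acetylated. Ikzf3 (58.1% and 0.910), Bcl11b (56.5% and 0.788) and Gata3 (53.9% and 0.638) were CpG-rich too and had no peak, in common with 14.0% of CpG-rich genes. Rag2 (42.3% and 0.179) was outside the CpG-rich class and had a TSS peak, as 1 of the 5 genes outside it. Il7r was close to it in composition (42.1% and 0.137) and had none. Rag1 (45.9% and 0.257), Pax5 (47.2% and 0.679) and Ebf1 (52.0% and 0.492) were the other promoters outside the CpG-rich class, in which 55.9% of all genes had no peak in any library.

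**Figure D5:**
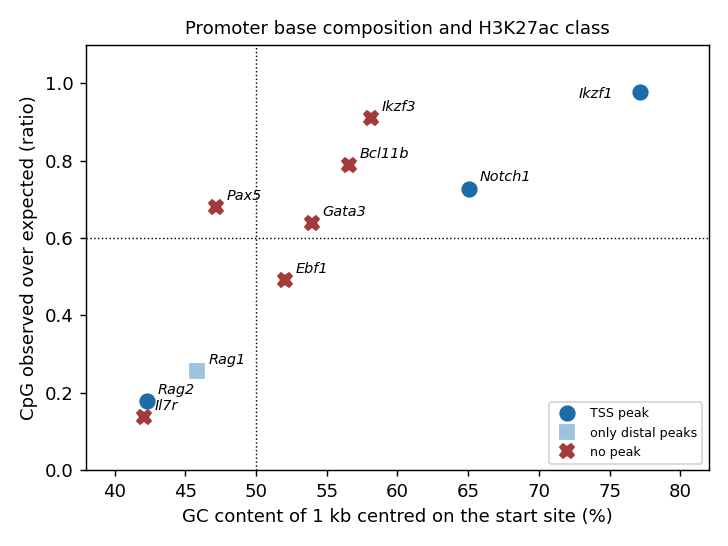
GC content (%) of 1 kb centred on the TSS against the observed over expected CpG ratio for the 10 genes, shaped and coloured by H3K27ac class, with dotted lines at 50% and 0.6. Of the 5 genes in the upper right field, Ikzf1 and Notch1 have a TSS peak and Ikzf3, Bcl11b and Gata3 have none.

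The printed sequences differ in the same way. The 250 bases before the Ikzf1 TSS held 44 CpG dinucleotides and none of the 5 motifs. Those before the Notch1 TSS held 16 CpGs and 1 GAGGAA match, those before the Bcl11b TSS 9 CpGs and 1 GAGGAA match, and those before the Rag2 TSS 3 CpGs and 1 GAGGAA match. The Il7r stretch held 1 CpG and 1 TGTGGT match. In stretches of this length before all 21938 genes, GAGGAA was found in 22.8% and TGTGGT in 12.7%. The Notch1 intronic site held 2 TGTGGT matches, and the Ikzf1 intronic site 1 AGATAA match. The Rag2 site, round the replicate 3 summit alone, held 1 AGATAA and 1 TGGGAA match. In the same length round the summits of all 14757 distal regions, TGTGGT was found in 16.4%, AGATAA in 8.17%, TGGGAA in 19.7%, GAGGAA in 21.2% and CAGCTG in 14.2%. Round the summits of all 19838 TSS-proximal regions, the comparison for the Rag2 site, AGATAA was found in 4.90% and TGGGAA in 15.6%. A match is a description of the letters, not of a bound factor.

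Genes that work with the 10 were counted by the same rule. For comparison, 46.9% of all genes and 76.8% of those with CpG-rich promoters had a TSS peak in at least 2 libraries. The counts of the lists were not tested against these shares. All 7 genes of interleukin 7 receptor signalling had a TSS peak in at least 2 libraries, although Il7r did not. The highest were Crlf2 (28.1), a receptor chain for a related cytokine, Jak1 (26.1), a receptor-bound kinase, and Stat5b (12.7), a transcription factor that the receptor activates, as mean fold enrichments. All 7 genes of DNA end joining, which seals the breaks that Rag1 and Rag2 make, also had one, led by Prkdc (10.2), Xrcc4 (9.17) and Xrcc6 (9.04). In 4 of these 7 genes every TSS peak also lies within 2.5 kb of a start of another protein-coding gene, Mcm4 for Prkdc, Tmem167 for Xrcc4, Abhd13 for Lig4 and Meig1 for Dclre1c. The same holds for Il2rg of the interleukin 7 list, with Gm20489. Of 14 NOTCH pathway genes 10 had a TSS peak, led by Maml1 (31.1), a coactivator, and the receptor Notch2 (18.1). Dtx1 had no peak in any library. Notch2 was higher than Notch1 in 3 of 3 libraries, with 16.0, 17.9 and 20.3.

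Of the 3 other Ikaros family genes, Ikzf5 (12.7, shared with Acadsb) and Ikzf2 (8.07) had TSS peaks and Ikzf4 had only distal ones. Among 12 factors of early lymphoid progenitors 8 had a TSS peak, led by Tcf3 (14.6), the partner of Ebf1 in early B cells, the cytokine receptor Flt3 (10.5) and Satb1 (9.19), and Dntt, Lef1 and Id2 had no peak in any library. Of 7 paralogues of Gata3, Ebf1 and Pax5 only Gata2 had a TSS peak (6.87), and Ebf2, Ebf3, Pax2 and Pax8 had no peak in any library.

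Markers of B and T cells, those of their precursors (Vpreb1, Igll1 and Ptcra) included, were examined because the sorting gate excluded cells with B220 or CD5. Of 9 B cell markers 2 had a TSS peak, Vpreb1 (12.7) and Cd79b (5.86), the former shared with the start of Top3b. Cd22, Ms4a1 and Pou2af1 had no peak in any library, and 3 markers, Cd79a and Igll1 among them, had only distal peaks. Of 11 T cell markers 3 had a TSS peak, Cd3d (6.36), Cd5 (5.01) and Lck (4.91). A further 5, Cd3e, Cd3g, Cd4, Ptcra and Lat, had only distal peaks, in all 3 libraries, and Cd8a, Zap70 and Themis had no peak in any library. Among all genes 13.2% had only distal peaks in at least 2 libraries and 36.6% had no peak in any library. The part of B or T cells in the peaks at Ikzf1, Notch1 and Rag2 was not tested.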

How the data were processed

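H3K27ac ChIP-seq peak lists of 3 BcorΔE9-10 KL libraries were analysed. The labels list them as separate replicates, and per the study's methods 3 mice were used for ChIP. The 10 genes, the lists of other genes and the motifs were chosen with earlier results of these data known. Per the submitters' processing notes, tools included cutadapt 1.7, Bowtie2 and MACS2 2.1.1, on GRCm38, and peaks were called in each library separately. The deposited fold enrichment is a ratio to local background, and the authors also give the −log10 of p and q and a score, which was not used. The control used for calling is not given in the sources used here.

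Rows with the same interval were joined under their highest fold enrichment, and 1 bp of overlap sufficed. Depth and fragments per summit were recovered from the fold enrichment and p-value of each row (100% of rows solved), which assumes the default formulas of the peak caller. Peak names were numbered without gaps. Gene models were GENCODE M21, with all annotated TSSs of a gene. For sequences and base composition the TSS was the most upstream among basic protein-coding transcripts. A class was called where at least 2 of 3 libraries had it, the number that the study asked of its super-enhancers. Log ratios within a library were permuted exactly over their signs. Shares carry Wilson and fragment counts Poisson 95% intervals, which cover counting error only. The class calls were tested on simulated data, where 400 of 400 genes with planted peaks came back in their class. The peaks were planted by the same window limits that the calls use, so full recovery was required of the code. This checks the sorting of peaks into classes and not the accuracy of the peak calls in these libraries.

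Of other genes, those with a TSS in a window and a peak within 2.5 kb of it in at least 2 libraries were named. Of each list, the 3 genes with the highest mean fold enrichment at the TSS were named, and, where 5 or fewer, those without a peak in any library. Some genes that this rule takes in are not reported here. Cd79a, Igll1, Cd3e, Cd3g, Cd4, Ptcra, Lat, Elane, Ikzf4, genes that share a TSS peak with a listed gene and genes at the nearest peaks were named after their values were seen. Upstream sequences were shown for Ikzf1 and Notch1 because their TSS summits lie in transcribed exons. Of the 10 genes, 9 were found in the RefSeq promoter table, and Ikzf3 was not. Software was Python 3.11.15 with numpy 2.4.6, scipy 1.17.1 and statsmodels 0.14.6.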

Additional observations from a re-analysis of the deposited data

How the results depend on the processing

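The classes of the 10 genes were the same when the TSS window was 1 or 5 kb, when protein-coding transcripts alone gave the TSSs, when the summit had to lie in the window, when 1 or all 3 libraries were asked for, and without each library. With a −log10 q of at least 5, Rag2 joined Rag1 among genes with only distal peaks (2 genes) and 18 regions were left, since fewer peaks enter. Rag1 left that class (0 genes) in the gene body alone and when peaks at starts of other genes were left out. A flank of 50 kb added Ikzf3 and Pax5 to it (3 genes) and turned the ratio of TSS-proximal to other fold enrichment to 0.962. The 6 genes without a peak numbered 4 with that flank. The share of regions in every remaining library ran from 36.1% to 46.9% without 1 library, where 2 libraries sufficed. The median over TSS-proximal peaks in place of the highest gave 10.1 at Ikzf1 and 4.15 at Rag2. At Rag2 a TSS window of 1 kb gave 4.15 and one of 5 kb gave 5.84, which takes in the B230118H07Rik start. The order of means was Ikzf1, Notch1, Rag2 in each of these, but at 5 kb Notch1 (5.86) and Rag2 were level. In all, 81 of 92 recomputed values kept their call or stayed within the spread of the libraries, the Wilson interval or 1.5 times the count. This count does not measure robustness. The merged regions do not depend on the TSS window, so their number and share could not change with it. Some changes also count as kept. These include the fall from 3 to 2 genes with a TSS peak at the stricter q, and from 6 to 4 without a peak and the rise from 39 to 56 regions at 50 kb. Another is the fall from 39 to 26 regions when peaks within 500 bp of each other were merged. Of those 26 regions 9 were in all 3 libraries (34.6%). Depth limits what can be seen to sites of at least 8 or 9 fragments. No paired analysis was possible because all 3 libraries belong to 1 group, which leaves no second group to pair them with. The ratios tested are between peaks of the same library.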

Other observations

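A peak in the Ikzf1 window that was listed in replicate 3 alone was stronger than any distal peak of the gene found in every library, and it was chosen after its values were seen. It lies downstream of the gene, 103 kb from the TSS (chr11:11788617-11788873), with a fold enrichment of 7.37 on 26 fragments (Poisson 95% interval 17.0 to 38.1). Replicates 1 and 2 listed no peak there, although their smallest called summits had 8 fragments.

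Of the genes of end joining and interleukin 7 signalling, 2 had a TSS peak in 2 libraries rather than 3. Xrcc5 was listed in replicates 2 and 3 (5.95 and 4.56), and Il7, the ligand of Il7r, in replicates 1 and 2 (5.12 and 2.98).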
